A study of Homo sapiens with 6 samples.

Results

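CD86 and 6 other genes of the co-stimulatory system were followed in OCI-AML2, a human line of acute myeloid leukaemia cells, with and without the kinase inhibitor MRT199665. The 7 genes were CD86, CD80, CD274, PDCD1LG2, ICOSLG and CD276, which are ligands of the B7 family, and CD40, a receptor of antigen-presenting cells. They are 7 of the 55765 genes in the deposited count table and were found by their symbols, and all 7 were present. The set was chosen by family and on the fold change of CD86, which was already known from these same libraries, so the members' values are given as a description, without a test. A further 129 related genes on 7 lists, from ligands and receptors to regulators, were looked up in the fit over the whole table. These lists, too, were drawn up with earlier results of these data known, so their counts of calls are a description.

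Every library came from OCI-AML2, and the labels state that the cultures were clones grown from single cells. The 3 treated libraries received 100 nM MRT199665, which the labels name as an inhibitor of the MARK kinases, and the 3 control libraries received vehicle alone, both for 48 h. No other agent or allele is given for either group. Whether the 3 libraries of each group were grown as separate cultures is not stated in the labels, so the spread between them, and every p-value that rests on it, may be technical. Sequencing was from the 3′ ends of messenger RNAs, so a transcript gives reads near its end whatever its length.

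T cells need a second signal beside that of the antigen receptor, and B7 ligands on the presenting cell give it. CD86 and CD80 bind CD28, which activates the T cell, and CTLA4, which restrains it. CD274 and PDCD1LG2 bind the inhibitory receptor PDCD1, ICOSLG binds ICOS, and CD276 is a family member whose receptor is not settled. CD40 receives the signal of CD40LG on helper T cells and induces B7 ligands in dendritic cells and B cells. In the myeloid lineage CD86 is found on monocytes, macrophages and dendritic cells, and monocytic leukaemia cells often carry it.

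Total counts ranged from 5871097 (MRT199665 replicate 2) to 14308650 (MRT199665 replicate 3). Levels are given as CPM, counts brought to one library size with totals scaled by the TMM method. A count of 0 allows for up to 3 counts, which were worth between 0.212 and 0.506 CPM, and this limit covers counting error only. A filter on low counts left 13053 genes for testing. Of these, 111 (0.850%) were called higher and 52 (0.398%) lower with MRT199665 at a Benjamini-Hochberg adjusted p under 0.05 in edgeR's quasi-likelihood test. The groups did not overlap, with all 3 treated libraries above all 3 vehicle libraries, at 1483 genes (11.4%), and with all below at 1412 genes (10.8%). The first principal component, with 46.8% of the variance, placed MRT199665 replicate 2 at 48.4 and vehicle replicate 2 at -36.8, and it did not separate the groups. The second component, with 26.3% of the variance, did, with vehicle libraries at -35.3, -0.957 and -12.4 and treated libraries at 26.4, 5.95 and 16.3.

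CD86 is the member whose messenger RNA differed most between the groups. RefSeq gives 2 windows around CD86 start sites, both on the plus strand of chromosome 3 in GRCh38.p14, each of 300 bases and running across the start. They are shown because CD86 carries the difference among the 7 genes, with matches of 2 motifs in capitals. In the first window, at chr3:122055112-122055411, the capitals mark GAGGAA, the core bound by the myeloid factor PU.1, on either strand (TTCCTC is its opposite strand). In the second, at chr3:122077534-122077833, they mark 2 overlapping matches of the NF-kB motif.
CD86 first window: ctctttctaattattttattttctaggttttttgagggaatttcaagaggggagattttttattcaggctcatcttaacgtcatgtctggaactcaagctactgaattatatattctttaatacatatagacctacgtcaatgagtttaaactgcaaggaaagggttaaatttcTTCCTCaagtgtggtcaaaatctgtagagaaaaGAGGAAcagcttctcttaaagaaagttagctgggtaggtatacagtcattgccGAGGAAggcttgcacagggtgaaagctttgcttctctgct
CD86 second window: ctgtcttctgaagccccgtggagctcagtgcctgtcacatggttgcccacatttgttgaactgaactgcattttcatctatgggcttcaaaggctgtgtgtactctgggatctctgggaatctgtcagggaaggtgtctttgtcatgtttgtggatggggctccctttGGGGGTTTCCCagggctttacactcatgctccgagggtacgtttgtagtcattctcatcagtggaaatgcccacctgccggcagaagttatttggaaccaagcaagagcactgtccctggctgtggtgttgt
The first window held 3 GAGGAA matches, at -76 to -71 on the opposite strand and at -43 to -38 and 11 to 16 on the gene's own strand, counted from the start site. Of 35116 RefSeq windows of the same length, 27.9% held at least 1 match and 0.649% held 3 or more. The NF-kB motif, searched on both strands, was present in 11.3% of windows. The share with 3 or more matches was counted for GAGGAA only, with the cut-off set at the number found in CD86. It therefore does not measure how unusual the CD86 window is. The MEF2 motif, found in 2.99% of windows, had no match in either CD86 window. Nor had TTCNNNGAA, TGACGTCA and TATAAA, which were also searched. The 2 motifs in capitals are not particular to CD86. A window of CD276, whose groups overlapped, also held a GAGGAA and an NF-kB match. ICAM3 windows held both motifs, and the VSIR window held an NF-kB match. The windows also differed in base composition, with 37% G and C in the first and 51.3% in the second. These matches describe letters and are no evidence of binding, and reads from 3′ ends do not show which start was used.

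CD86 counts were 16, 26 and 18 in vehicle replicates 1, 2 and 3. They were 213, 95 and 177 in MRT199665 replicates 1, 2 and 3. As CPM these were 1.34, 2.23 and 1.83 in vehicle and 16.0, 16.0 and 12.5 with MRT199665. All 3 treated libraries were high and all 3 vehicle libraries low, and the groups did not overlap. The means were 14.9 ± 2.03 CPM in treated and 1.80 ± 0.444 CPM in vehicle libraries (SD, n = 3 each), an 8.20-fold difference (log2 fold change 3.04 ± 0.23 SE). By log2 fold change CD86 stood 3rd of the 13053 tested genes.

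The difference in CD86 was present in every pairing of libraries. The 9 ratios of a treated to a vehicle library ran from 5.62 to 12.0. Exact Poisson 95% intervals, which cover counting error only, reached at most 3.26 CPM in a vehicle library and fell no lower than 10.7 CPM in a treated one. MRT199665 replicate 2, the shallowest library, had fewer than 100 CD86 counts but the same CPM as replicate 1. In vehicle the SD was 24.7% of the mean, where counting alone gives 22.4%. With MRT199665 it was 13.6%, where counting gives 8.40%. In bulk RNA, a change in the number of cells that express CD86 and a change in CD86 RNA per cell cannot be told apart.

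**Figure D1:**
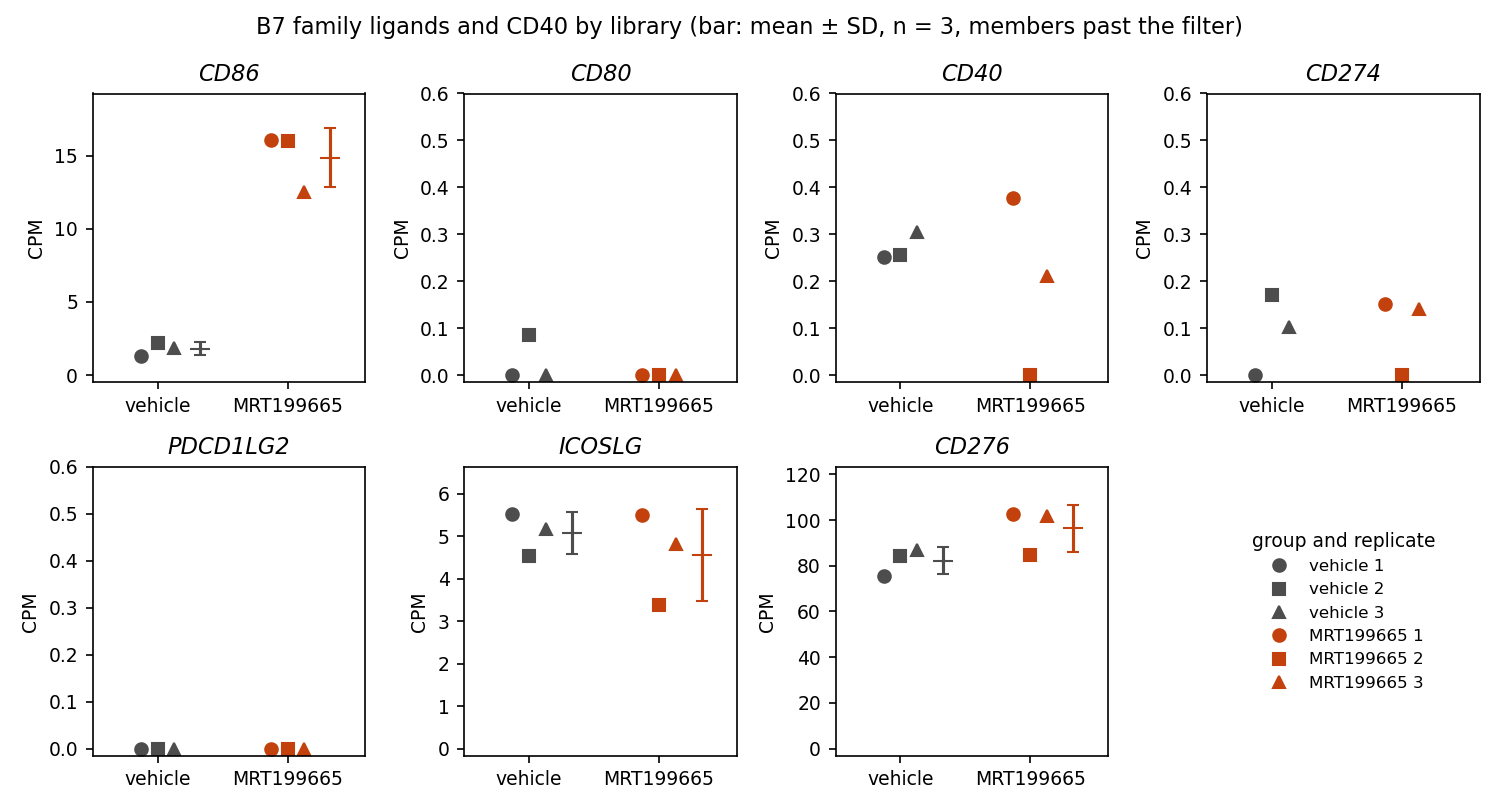
CPM (vertical axis, on its own scale for each gene) of the 7 members in the 6 libraries, with 1 point per library, its shape giving the replicate, and a bar for the group mean and SD of members past the low-count filter. CD86 lies between 1.34 and 2.23 CPM in vehicle and between 12.5 and 16.0 CPM with MRT199665, while the other 6 members either overlap between the groups or stay at or near 0.

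CD80, the other ligand of CD28 and CTLA4, was close to undetected. Its only count was 1 in vehicle replicate 2, and the other 5 libraries had 0. The data therefore give CD80 no fold change, and no difference could be detected at this depth. The gene overlaps TIMMDC1 on the opposite strand in GENCODE release 29, and TIMMDC1 had between 492 and 793 counts per library. The pair of CD28 ligands thus differed in these cells, with CD86 counted in every library and CD80 in 1 of 6.

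The ligands of the inhibitory receptor PDCD1 were also near or at 0. CD274, the ligand known as PD-L1 and induced by interferon gamma, had 0, 2 and 1 counts in vehicle and 2, 0 and 2 with MRT199665. Pooled over the libraries of a group, this was 0.0896 CPM in vehicle (exact Poisson 95% interval 0.0185 to 0.262) and 0.120 CPM with MRT199665 (0.0327 to 0.307). The intervals overlap over most of their length, and the groups share the values 0 and 2. PDCD1LG2, the neighbour of CD274 on chromosome 9, had 0 counts in all 6 libraries. A count of 0 over 3 libraries allows up to 0.0900 CPM in treated and 0.0896 CPM in vehicle libraries. No fold change is given for either gene.

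ICOSLG, the ligand of ICOS, was present at a few CPM in every library. Its counts were 66, 53 and 51 in vehicle and 73, 20 and 68 with MRT199665. These correspond to 5.53, 4.54 and 5.18 CPM in vehicle and to 5.50, 3.37 and 4.81 CPM with MRT199665. Replicate 2 of the treated group was the lowest library, and the other 2 treated libraries lay within the vehicle range. The means were 4.56 ± 1.09 and 5.08 ± 0.501 CPM (SD, n = 3 each), with a log2 fold change of -0.12 ± 0.22 SE. Its sign rested on 1 library, as the log2 fold change was 0.02 without MRT199665 replicate 2.

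CD276, a ligand found on many tumour cells, gave most of the members' counts. Vehicle libraries had 901, 986 and 856 counts and treated libraries 1363, 502 and 1439. As CPM these were 75.4, 84.4 and 86.9 in vehicle and 103, 84.7 and 102 with MRT199665. MRT199665 replicates 1 and 3 were above every vehicle library, while replicate 2 lay inside the vehicle range, so the groups overlapped. The means were 96.4 ± 10.2 and 82.3 ± 6.05 CPM (SD, n = 3 each), a 1.17-fold difference (log2 fold change 0.23 ± 0.12 SE). The SD of CD276 was 7.35% of the mean in vehicle and 10.5% with MRT199665, where counting alone gives 3.31% and 3.30%. The spread of CD276 between libraries was therefore wider than counting error in both groups. For ICOSLG the SD was 9.87% of the mean in vehicle, below the 13.3% of counting alone, and 23.8% with MRT199665, above the 15.2% of counting.

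CD40, the receptor that induces B7 ligands in dendritic cells and B cells, was counted at most 5 times in a library. It had 3, 3 and 3 counts in vehicle and 5, 0 and 3 with MRT199665. Pooled levels were 0.269 CPM in vehicle (exact Poisson 95% interval 0.123 to 0.510) and 0.240 CPM with MRT199665 (0.104 to 0.473). The treated libraries lay on both sides of the vehicle libraries, and no difference could be detected.

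Of the 7 members, 3 (CD86, ICOSLG and CD276) passed the low-count filter. CD86 was the member whose groups did not overlap, 1 of these 3, beside 11.4% of all tested genes that were higher in this way. Nothing is read from that count, since CD86 was chosen on this contrast.

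The make-up of the members' counts, which includes the CD86 counts given above, shifted with them. CD86 made 1.62%, 2.43% and 1.94% of the 7 members' counts in vehicle replicates 1, 2 and 3. It made 12.9%, 15.4% and 10.5% in MRT199665 replicates 1, 2 and 3. Exact Clopper-Pearson 95% intervals were 0.930 to 2.62%, 1.59 to 3.54% and 1.15 to 3.04% in vehicle. They were 11.3 to 14.6%, 12.6 to 18.5% and 9.06 to 12.0% with MRT199665. All 3 treated intervals lay above all 3 vehicle intervals, which restates the CD86 difference on which the set was chosen. CD276 remained the member with most counts, with between 91.4% and 92.1% in vehicle and between 81.4% and 85.2% with MRT199665. Its lower share was no fall in its level, which averaged 82.3 CPM in vehicle and 96.4 CPM with MRT199665. ICOSLG made 6.69%, 4.95% and 5.49% in vehicle and 4.41%, 3.24% and 4.03% with MRT199665. The other 6 members together, without CD86, summed to 81.2, 89.5 and 92.5 CPM in vehicle and to 108.7, 88.0 and 106.9 CPM with MRT199665, so their sums overlapped.

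**Figure D2:**
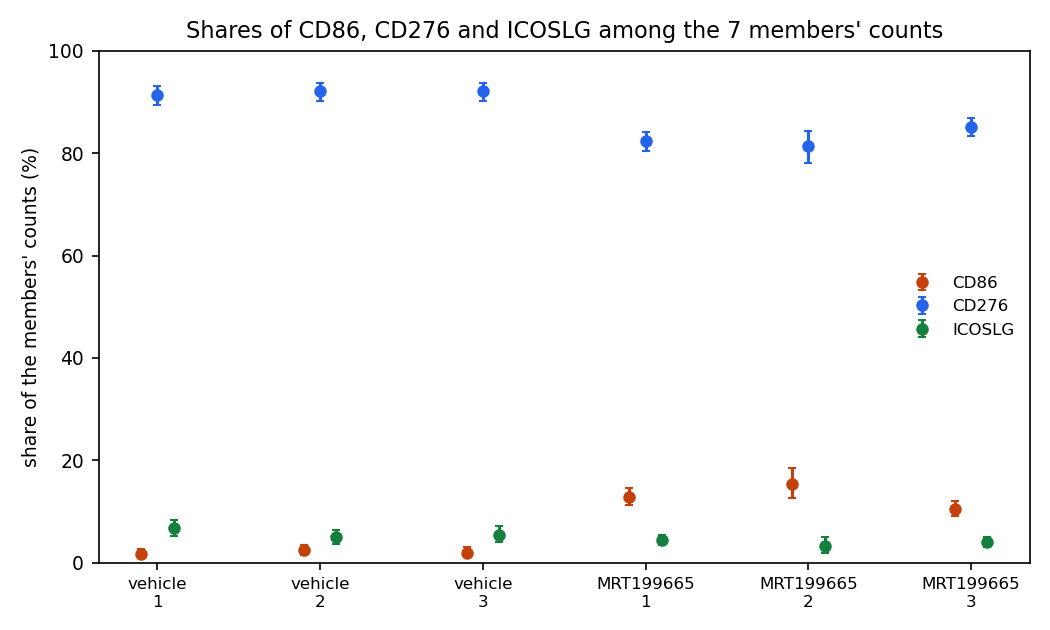
Share of the 7 members' counts, in percent, taken by CD86, CD276 and ICOSLG in each of the 6 libraries, with exact Clopper-Pearson 95% intervals that cover counting error only. CD86 spans 1.62% to 2.43% in vehicle and 10.5% to 15.4% with MRT199665, and CD276 takes between 81.4% and 92.1% over all libraries.

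Beyond the 7 members, 4 related genes rose with MRT199665 and none was called lower. The 7 lists held 129 genes, of which 113 had a count and 76 were tested. Since the lists were drawn up with earlier results known, their counts of calls are no independent support. At an adjusted p under 0.05 in edgeR's quasi-likelihood test the 4 genes were VSIR, ICAM3, CD84 and CIITA, where 0.850% of all tested genes were called higher and 0.398% lower. At an unadjusted p under 0.05 there were 10 higher and 11 lower, beside 996 higher and 929 lower of all 13053 tested genes. The same background applies to such counts of each list below. DESeq2 called 4 higher and 2 lower (RELB and TNF), and limma-voom called 4 higher and 0 lower. The groups did not overlap at 13 higher and 10 lower genes of the 76, beside 11.4% and 10.8% of all tested genes. The median log2 fold change was 0.05 over these genes and 0.01 over all tested genes.

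Among the other B7 and butyrophilin genes, 1 of 10 tested genes rose and 0 fell in edgeR, DESeq2 and limma-voom, with a median log2 fold change of -0.27. At an unadjusted p under 0.05, 2 were higher and 2 lower. The gene that rose was VSIR, listed under its older symbol C10orf54, a B7-like molecule that restrains T cells and is abundant on myeloid cells. Its counts were 359, 504 and 353 in vehicle and 1032, 469 and 973 with MRT199665. As CPM, the vehicle libraries lay at 30.1, 43.2 and 35.9 and the treated libraries at 77.7, 79.1 and 68.8, so every treated library was above every vehicle library. The means were 75.2 ± 5.58 and 36.4 ± 6.56 CPM (SD, n = 3 each), with a log2 fold change of 1.05 ± 0.15 SE and an edgeR adjusted p of 0.0142. The call was lost without vehicle replicate 3 (adjusted p 0.120), MRT199665 replicate 1 (0.0597) or MRT199665 replicate 3 (0.0638). Its locus overlaps CDH23 on the opposite strand, and CDH23 itself had between 13 and 46 counts. BTN3A1, BTN3A2 and BTN3A3 on the same list are close copies, among which reads could be split.

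Of the adhesion and co-signalling ligands, 2 of 9 tested genes rose and 0 fell in edgeR, DESeq2 and limma-voom, with a median log2 fold change of 0.16. At an unadjusted p under 0.05, 2 were higher and 1 lower. ICAM3, an adhesion molecule that binds the integrin LFA-1 on T cells, had 359, 417 and 303 counts in vehicle and 1099, 465 and 1128 with MRT199665. Its level was 80.3 ± 2.24 CPM against 32.2 ± 3.07 CPM (SD, n = 3 each), a log2 fold change of 1.32 ± 0.12 SE (edgeR adjusted p 0.00216). The ICAM3 call was kept when any 1 library was left out, with adjusted p up to 0.0246. CD84, a receptor of the SLAM family that binds itself on neighbouring cells, had 149, 111 and 114 counts in vehicle and 267, 146 and 310 with MRT199665. Its level was 22.2 ± 2.27 CPM against 11.2 ± 1.52 CPM (SD, n = 3 each), a log2 fold change of 0.98 ± 0.16 SE (edgeR adjusted p 0.0231). The groups of CD84 did not overlap, but its call was kept only where the library left out was vehicle replicate 1, and the adjusted p was between 0.0564 and 0.142 without any other. ICAM3 and CD84 each overlap an antisense gene, and the sources used here do not give the strand setting of the counting.

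Genes of antigen presentation and maturation gave 1 call higher and 0 lower among 15 tested genes in edgeR, with a median log2 fold change of 0.25. At an unadjusted p under 0.05 there were 5 higher and 4 lower. DESeq2 called 1 lower (TNF), as many as edgeR without vehicle replicate 1, and edgeR without the low-count filter called 3 lower. The gene called higher was CIITA, the master regulator of HLA class II genes. CIITA had 97, 93 and 75 counts in vehicle and 198, 85 and 227 with MRT199665. Vehicle libraries lay between 7.62 and 8.12 CPM and treated libraries between 14.3 and 16.1 CPM, without overlap. The means were 15.1 ± 0.876 and 7.90 ± 0.257 CPM (SD, n = 3 each), a log2 fold change of 0.94 ± 0.14 SE with an edgeR adjusted p of 0.0162. The call was lost without vehicle replicate 2 (adjusted p 0.0588), vehicle replicate 3 (0.127), MRT199665 replicate 1 (0.0712) or MRT199665 replicate 3 (0.135). The CIITA locus overlaps an antisense gene, the protein-coding gene DEXI on the opposite strand and AC133065.3 on the same strand. DEXI had 0 counts in every library. Whether these overlaps affected the CIITA counts was not tested.

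A few further genes of this list were picked after their values were seen, for their role at the CD86 protein. CD83, which stabilises CD86 on the surface of dendritic cells, was at 11.0 ± 0.805 CPM in treated and 9.93 ± 0.840 CPM in vehicle libraries (log2 fold change 0.16 ± 0.15 SE, edgeR adjusted p 0.679). MARCH1, a ubiquitin ligase that removes CD86 and class II molecules from the surface, had 12, 20 and 16 counts in vehicle and 31, 17 and 29 with MRT199665. Its log2 fold change was 0.71 ± 0.30 SE, which did not pass the test (edgeR adjusted p 0.328), although its groups did not overlap. MARCH8, its close relative, had a log2 fold change of 0.25 ± 0.13 SE (edgeR adjusted p 0.396). These are messenger RNA values, and CD86 protein was not measured here.

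The inducing pathways of B7 ligands gave no call. In the CD40 and NF-kB list, 0 of 20 tested genes were called, with 1 higher and 3 lower at an unadjusted p under 0.05, 1 lower by DESeq2 and a median log2 fold change of 0.01. RELB, the NF-kB subunit that drives dendritic cell maturation, was at 75.7, 48.1 and 65.1 CPM with MRT199665 and at 96.4, 114 and 88.7 CPM with vehicle. All 3 treated libraries were below all 3 vehicle libraries, with a log2 fold change of -0.66 ± 0.18 SE and an edgeR adjusted p of 0.131. DESeq2 called RELB lower (adjusted p 0.0373), as did edgeR without the low-count filter (0.00197). TAB1, an adaptor that activates the kinase TAK1 upstream of NF-kB, had a log2 fold change of -0.40 ± 0.11 SE (edgeR adjusted p 0.151).

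In the interferon gamma list, which holds the inducers of CD274, 0 of 15 tested genes were called, with 1 lower at an unadjusted p under 0.05, 0 by DESeq2 and a median log2 fold change of 0.04. IRF1, the factor that activates CD274, was at 20.1 ± 3.41 CPM in treated and 29.3 ± 3.41 CPM in vehicle libraries (SD, n = 3 each). Its groups did not overlap, and its log2 fold change of -0.54 ± 0.16 SE had an edgeR adjusted p of 0.169. IRF9, part of the type I interferon complex, had a log2 fold change of 0.66 ± 0.34 SE at about 1 to 2 CPM (edgeR adjusted p 0.411). SPI1, which encodes PU.1, was looked up after its value was seen because of the promoter motif. It was at 67.9 ± 7.40 CPM in treated and 65.6 ± 8.16 CPM in vehicle libraries (log2 fold change 0.05 ± 0.14 SE, edgeR adjusted p 0.911).

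Ligands of the TNF superfamily gave 0 calls among 4 tested genes, and none had an unadjusted p under 0.05. Their median log2 fold change was -0.04. CD70, the ligand of CD27, was at 1653 ± 289 CPM in treated and 2094 ± 336 CPM in vehicle libraries (SD, n = 3 each). Its groups overlapped, and its log2 fold change of -0.34 ± 0.18 SE had an edgeR adjusted p of 0.419. TNFSF9, the ligand of CD137, had a log2 fold change of -0.22 ± 0.14 SE (edgeR adjusted p 0.521).

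Most lymphocyte receptors of these ligands had no counts or too few to test. Of 19 listed receptor genes 12 had a count and 3 were tested. By edgeR, DESeq2 and limma-voom 0 were called and none had an unadjusted p under 0.05, with a median log2 fold change of 0.29. CD28, CTLA4, ICOS, PDCD1, CD2, TIGIT and TNFRSF18 had 0 counts in all 6 libraries. The genes with lowest p were CD244, a SLAM family receptor (log2 fold change 0.29 ± 0.14 SE, edgeR adjusted p 0.389), and BTLA, an inhibitory receptor (-0.51 ± 0.46 SE, edgeR adjusted p 0.668). CD86 was thus counted in libraries that held no count of either of its receptors.

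**Figure D3:**
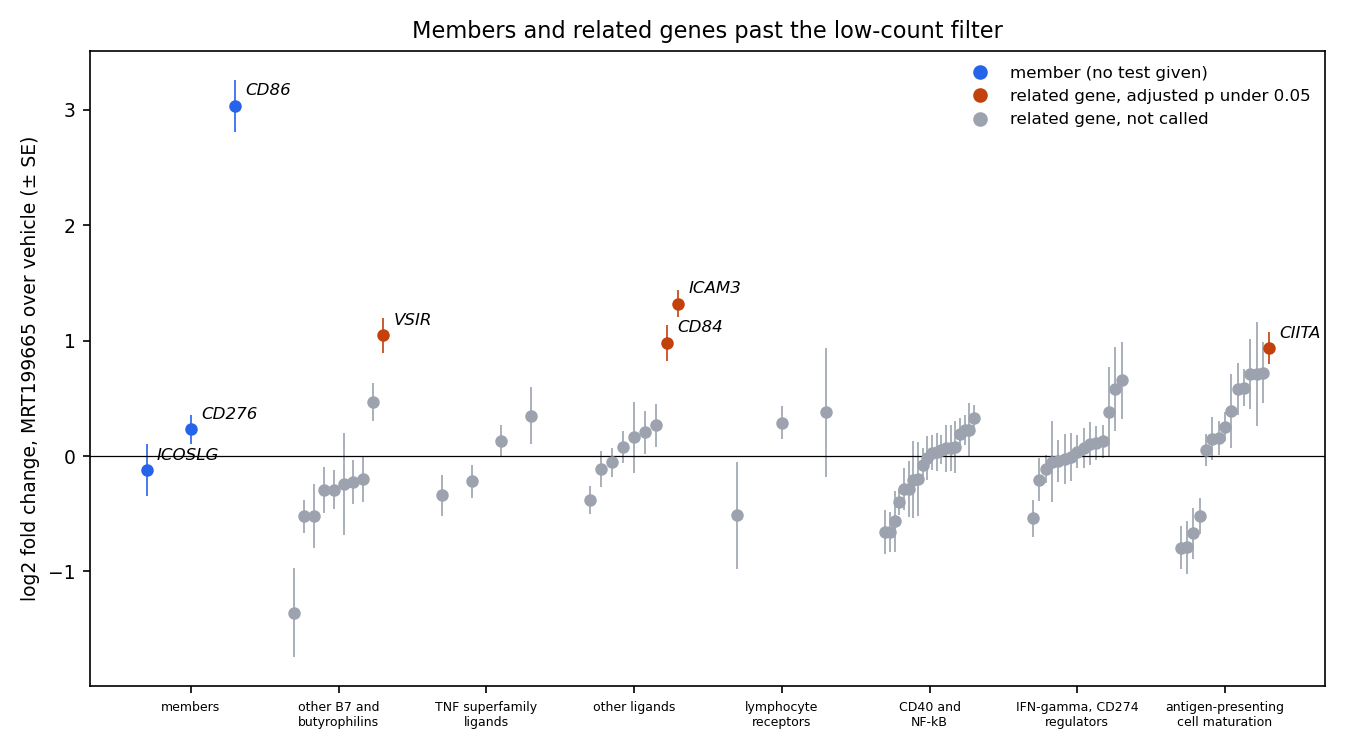
Log2 fold change of MRT199665 over vehicle, with its SE, for the 3 members and the related genes past the low-count filter, with 1 point per gene in each list and orange points for related genes at an adjusted p under 0.05 in edgeR's quasi-likelihood test. The 4 called genes, VSIR, ICAM3, CD84 and CIITA, lie between 0.94 and 1.32, below CD86 at 3.04, and the genes of the CD40 and NF-kB list lie on both sides of 0.

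The 6 genes whose profile over the libraries was nearest to that of CD86 were AMICA1, CSF1R, LILRB2, HLA-DRA, LSP1 and CNR2. Nearness was the root mean square difference of log2 CPM over the 6 libraries, each gene centred on its own mean, with a prior count of 2. It ran from 0.288 for AMICA1 to 0.404 for CNR2, where the median over all tested genes was 1.51, and the same 6 genes were nearest with a prior count of 0.5. Since they were selected for likeness to CD86, their own difference between groups follows from the selection and is given as a description.

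AMICA1, an adhesion molecule of leukocytes now called JAML, was at 18.2 ± 2.18 CPM in treated and 2.34 ± 0.169 CPM in vehicle libraries, a 7.72-fold difference. CSF1R, the receptor for the macrophage growth factor, was at 41.0 ± 3.34 and 8.06 ± 1.17 CPM, a 5.09-fold difference. LILRB2, an inhibitory receptor for HLA class I on monocytes, was at 15.4 ± 2.09 and 2.09 ± 0.486 CPM, a 7.30-fold difference. These 3 genes and CD86 are surface molecules of monocytes, and in each the treated libraries lay above the vehicle libraries. HLA-DRA, the alpha chain of the class II molecule that presents antigen beside CD86, was at 35.3 ± 6.47 and 7.02 ± 0.248 CPM, a 4.99-fold difference. LSP1, a leukocyte protein that binds actin, was at 22.9 ± 4.72 and 4.91 ± 1.02 CPM, a 4.62-fold difference. CNR2, a cannabinoid receptor of immune cells, was at 6.10 ± 0.980 and 1.14 ± 0.194 CPM, a 5.38-fold difference (SD, n = 3 in each group for all 6 genes). LILR and class II genes have close copies, and the sources used here do not say how their reads were divided.

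**Figure D4:**
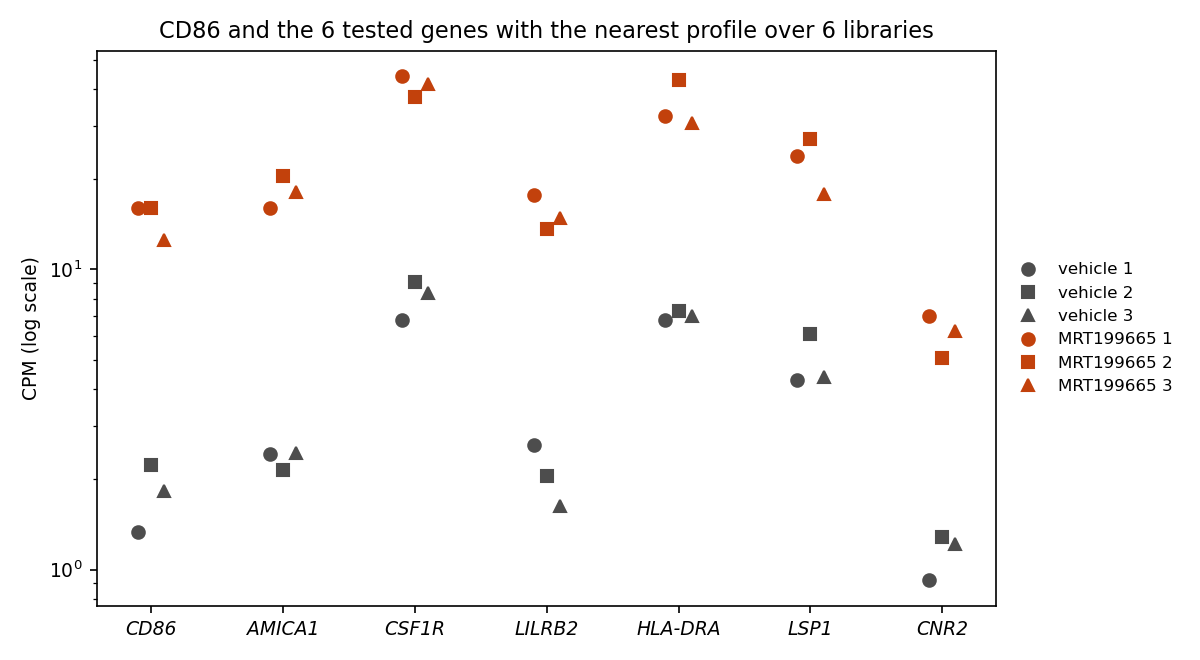
CPM on a log scale of CD86 and its 6 nearest genes, with 1 point per library, its shape giving the replicate. In each of the 7 genes all 3 MRT199665 libraries lie above all 3 vehicle libraries, which the choice by likeness to CD86 brings with it.

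Markers of the labelled lineage and of other cells that carry co-stimulatory ligands were set beside these values. Of 13 myeloid markers 9 were tested, and CSF1R was the 1 called higher. The groups did not overlap at 6 higher and 2 lower of the 9, beside 11.4% and 10.8% of all tested genes. The myeloid genes CD33 and MPO were at 32.9 and 64.9 CPM in vehicle and at 41.1 and 89.5 CPM with MRT199665. In the other direction, the surface enzymes ANPEP and CD38 were at 1.72 and 53.9 CPM in vehicle and at 0.935 and 34.1 CPM with MRT199665. None of these 4 genes passed the test. CD34 and CD68 had 0 counts in all libraries. The summed level of the myeloid list was 182.5 to 236.9 CPM in vehicle and 256 to 271 CPM with MRT199665, without overlap. That gap was not kept without CSF1R, 1 of the genes selected above for likeness to CD86. Sums without other genes of the list, such as MPO, were not computed, so the gap is not credited to CSF1R alone. With CSF1R left out, which was tried after seeing the data, the sums were 173.4 to 230.2 CPM in vehicle and 211 to 233 CPM with MRT199665, and they overlapped.

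Of 11 dendritic cell markers 3 were tested and 0 called. The defining genes CD1C, XCR1 and CD207 had 0 counts. CLEC9A, a receptor of cross-presenting dendritic cells, was counted in every library, at 10.8 ± 7.58 CPM in vehicle and 5.60 ± 1.34 CPM with MRT199665, and its groups overlapped. FLT3, a growth factor receptor of dendritic cell and leukaemic progenitors, was at 15.1 ± 0.899 and 22.6 ± 4.23 CPM, without overlap and without passing the test (edgeR adjusted p 0.149). The summed level was 24.8 to 37.5 CPM in vehicle and 28.7 to 40.8 CPM with MRT199665. Of 8 B cell markers 3 were tested and 0 called. MS4A1, BLK and CR2 had 0 counts, and the summed level was 6.95 to 9.33 CPM in vehicle and 6.78 to 9.44 CPM with MRT199665. Of 12 T and natural killer cell markers 3 were tested and 1 was called higher. That gene was TRAC, the constant segment of the T cell receptor alpha chain, at 21.6 ± 0.687 CPM in treated and 10.4 ± 1.76 CPM in vehicle libraries, while CD3E had a single count, in vehicle replicate 2, and 0 in the other 5 libraries. The summed level of that list was 90.9 to 93.7 CPM in vehicle and 94.8 to 104.2 CPM with MRT199665, without overlap. Most of it came from NCAM1, which itself averaged 74.1 CPM in vehicle and 65.9 CPM with MRT199665, with overlapping groups. NKG7, also tested, was at 9.92 ± 0.971 CPM in treated and 6.90 ± 0.368 CPM in vehicle libraries. Its groups did not overlap, and it did not pass the test (edgeR adjusted p 0.172).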

How the data were processed

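RNA of 6 OCI-AML2 libraries was measured by 3′ sequencing with a Lexogen kit, per the labels' protocols. Per gene symbol, the authors deposited whole-number counts without normalization, as checked on the values. The submitters' processing notes name STAR 2.4, HTSeq 0.6.1, DESeq2 and the hg19 build. The annotation, strand setting and read filters are not given in the sources used here. Groups and replicate numbers came from the labels. The members and all gene lists were chosen with earlier results of these data known.

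The test was edgeR's quasi-likelihood test (edgeR 4.0.16 under R 4.3.3) with glmQLFit, glmQLFTest, TMM scaling and group as the single term. filterByExpr with a minimum count of 10 and a minimum total of 15 left 13053 of 55765 genes. Calls were two-sided at a Benjamini-Hochberg adjusted p under 0.05 over all tested genes. Each log2 fold change was divided by the square root of its F statistic to give its SE. CPM were computed on totals scaled by TMM, and log2 fold changes are MRT199665 over vehicle. On simulated data the test recovered most of the large changes, but the share of false calls was above the level that the threshold sets.

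All 7 members were named, as were up to 4 called genes per list by lowest p, or up to 2 tested genes where none was called, the 6 genes nearest to CD86 and the defining markers with a count. Older symbols were used for VSIR (C10orf54), NECTIN2 (PVRL2), MARCHF1 (MARCH1) and MARCHF8 (MARCH8). Promoter windows came from a RefSeq table on GRCh38.p14, in which 5 of 7 members and 2 of 4 called related genes were found. They are on a later build than the counts. GENCODE release 29 served only for the names of overlapping genes.

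The alternatives tried were DESeq2 1.42.0, limma-voom (limma 3.58.1), other filters on low counts, other scalings, the newer quasi-dispersion of edgeR, the replicate number as a block, other prior counts, and leaving out each library or both replicate 2 libraries. No library was a copy of another of its group, since chi-square per degree of freedom between such libraries was 9.70 or more. The depth, from 5871097 to 14308650 counts, left 4 of the 7 members too low for a fold change.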

Additional observations from a re-analysis of the deposited data

How the results depend on the processing

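The log2 fold change of CD86 stayed between 2.85 and 3.22 over its 17 alternatives, that of CD276 between 0.17 and 0.33, and that of ICOSLG between -0.27 and 0.02. The count of related genes called higher, 4 in the reported test, was 0 with the replicate block and 1 to 4 with 1 library left out. The count of related genes called lower, 0 in the reported test, was 5 without the low-count filter (BATF3, FSCN1, RELB, TNF and TNFAIP3), 2 with DESeq2, 1 without both replicate 2 libraries and 0 to 1 with 1 library left out. Over all genes, 111 calls higher became 373 without the filter, 197 with DESeq2, 7 with the replicate block and 29 to 78 with 1 library left out. The 52 calls lower became 271, 150, 5 and 20 to 55. The higher share of calls was 68.1% as reported, 57.9% without the filter, 56.8% with DESeq2 and 58.3% with the block. The cause of these shifts was not tested, except that a fit with 1 library less has fewer samples. Same-numbered libraries did not deviate together (correlations of -0.55, -0.47 and 0.02), no library correlated best with its own number, and so the replicate numbers were not treated as pairs. Some differently numbered libraries did deviate together. The correlation was 0.53 for MRT199665 replicate 1 with vehicle replicate 2, and 0.48 for MRT199665 replicate 2 with vehicle replicate 1. The fit with group as the single term takes no account of this. With the block, the edgeR adjusted p was 0.137 for VSIR, 0.0679 for ICAM3, 0.256 for CD84, 0.217 for CIITA and 0.0809 for CNR2. Members at fewer than 10 counts in every library were too shallow for small differences to be seen.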

Other observations

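Further genes of the antigen-presenting cell list had non-overlapping groups without passing edgeR's quasi-likelihood test. With CIITA and MARCH1, 5 of the 15 tested genes were higher in this way and 3 were lower, beside 11.4% and 10.8% of all tested genes. The other 3 higher genes were transcription factors. IRF5, a factor of macrophage activation, was at 13.8 ± 2.02 CPM in treated and 9.22 ± 0.802 CPM in vehicle libraries (SD, n = 3 each, edgeR adjusted p 0.140). ZBTB46, a factor of classical dendritic cells, was at 4.33 ± 0.537 and 2.87 ± 0.444 CPM (edgeR adjusted p 0.276), and ID2, an inhibitor of helix-loop-helix factors, at 5.69 ± 0.776 and 3.45 ± 1.13 CPM (edgeR adjusted p 0.246). The 3 lower genes were BATF3, CEBPB and TNF. BATF3, a factor of cross-presenting dendritic cells, was at 6.17 ± 0.648 and 10.6 ± 1.69 CPM (edgeR adjusted p 0.0902). CEBPB, a factor of monocytes, was at 22.7 ± 2.87 and 32.7 ± 4.89 CPM (edgeR adjusted p 0.170), and TNF, the inflammatory cytokine, at 36.4 ± 4.07 and 62.7 ± 20.7 CPM (edgeR adjusted p 0.160).

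Myeloid markers at few counts, chosen after their values were seen, lay on both sides without a call. As CPM, which allow for the low depth of MRT199665 replicate 2, the groups of each gene below did not overlap. LYZ, ITGAM, KIT and CD14 were higher and ANPEP lower, beside 11.4% and 10.8% of all tested genes. LYZ, the lysozyme of monocytes, had 12, 22 and 16 counts in vehicle and 47, 27 and 38 with MRT199665 (log2 fold change 1.22 ± 0.32 SE, edgeR adjusted p 0.128). ITGAM, an integrin of monocytes and granulocytes, had 14, 10 and 10 counts in vehicle and 24, 12 and 33 with MRT199665 (log2 fold change 1.01 ± 0.29 SE, edgeR adjusted p 0.150). KIT had 8, 7 and 3 counts in vehicle and 13, 5 and 23 with MRT199665 (log2 fold change 1.15 ± 0.43 SE, edgeR adjusted p 0.264). ANPEP, a surface peptidase of myeloid cells, had 17, 21 and 19 counts in vehicle and 15, 7 and 7 with MRT199665 (log2 fold change -0.93 ± 0.38 SE, edgeR adjusted p 0.303). CD14, the monocyte co-receptor for lipopolysaccharide, had 8, 6 and 5 counts in vehicle and 13, 5 and 10 with MRT199665 and did not pass the low-count filter.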
